A study of Mus musculus with 7 samples.

Results

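The genes described are 41 mouse genes of blood and lymphatic vessels and of the factors that shape them, named in a hand-written list and found by symbol among 55423 features. All 41 had enough reads to be tested, among 24433 genes tested. They fall by role into 12 endothelial markers, 4 endothelial transcription factors, 9 receptors, 5 surface proteins of activated or lymphatic endothelium and 11 secreted factors, and the question was how the vessel-wall genes compare with the secreted factors when tumours with and without added SOX2 are set side by side.

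Bulk RNA was sequenced from skin tumours of C57BL/6J mice in which topical tamoxifen, given at 7–10 weeks of age per the sample labels (the study's methods give a range that starts and ends later), activated an inducible Cre recombinase driven by the involucrin promoter (Ivl-CreERT2). This promoter is active in committed (IVL+) cells of the epidermis, so recombination was directed to epidermal cells. The 3 Ivl:BRAFV600E tumours used here, of 4 labelled, carried a heterozygous conditional BRAFV600E oncogene. Tumours 1 and 2 of this group came from mice that also carried a Rosa26 tdRFP reporter allele. The 3 Ivl:BRAFV600E-SOX2LSL tumours carried the same Cre and oncogene together with a Rosa26 allele that expresses SOX2 and eGFP once a stop cassette is removed. Both groups held males and females, with 2 females in the first and 1 in the second. Every Ivl:BRAFV600E-SOX2LSL tumour was collected sooner after induction than every Ivl:BRAFV600E tumour, so time and genotype cannot be told apart. Because whole tumours were used, fewer cells of a type and less RNA per cell cannot be told apart either.

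Vessels are lined by endothelial cells, which adhere to one another through molecules such as PECAM1 and VE-cadherin (Cdh5). They respond to secreted VEGF, angiopoietin, PDGF, FGF and apelin ligands through surface receptors, several of which are also found on tumour cells, fibroblasts or leukocytes. Inflamed endothelium adds selectins and immunoglobulin-type adhesion molecules, by which leukocytes attach to the wall, and lymphatic endothelium is told apart from blood endothelium by genes such as Prox1, Flt4 and Pdpn.

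Between 23565432 and 31152826 counts lay on genes per tumour. The unit of all levels is CPM (the counts of a gene in every 1 M of a library, scaled by TMM), and 3 counts, taken as the smallest amount that can be told from 0, correspond to 0.0839–0.143 CPM. EGFP had 0 counts in every Ivl:BRAFV600E tumour and 111 to 139 CPM in the Ivl:BRAFV600E-SOX2LSL tumours, and Sox2 was at 0.238–0.716 CPM against 155–182 CPM, so both followed the labels. With an adjusted p below 0.05 by the quasi-likelihood test of edgeR as the call, 954 genes (3.90%) differed, 585 higher (2.39%) and 369 lower (1.51%) with SOX2. Of the cell type lists, skeletal muscle had the most calls, with 19 of 24 tested markers called higher and sums of 10.8–26.0 CPM against 907–3850 CPM. There were 2 libraries that stood apart: Ivl:BRAFV600E tumour 2 had 1571 CPM of red blood cell genes against 37.6–96.6 CPM in the other 5 tumours, and Ivl:BRAFV600E-SOX2LSL tumour 1 had the lowest keratinocyte sum, 22800 CPM against 66230–183300 CPM.

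The general endothelial markers differed little between the genotypes, whereas 3 of the 41 genes rose in the Ivl:BRAFV600E-SOX2LSL tumours: the receptors Nrp2 and Fgfr1 and the surface glycoprotein Pdpn. None was called lower by edgeR, while DESeq2 and limma each called 1, Kdr, lower. The share of members called higher, 3 of 41, stands beside 2.39% of all genes tested, and DESeq2 called 8 members, 7 higher and 1 lower, beside 18.2% of the genes to which it gave an adjusted p. Positive fold changes were found for 35 of the 41, with a median log2 value of 0.32, against 52.8% of all genes and a median of 0.04. All values of 1 group lay above all values of the other for 9 members with SOX2 higher and for 1 with SOX2 lower, where 18.2% and 16.0% of all genes did so. An unadjusted p below 0.05 was reached by 10 members and by 25.7% of all genes.

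**Figure D1:**
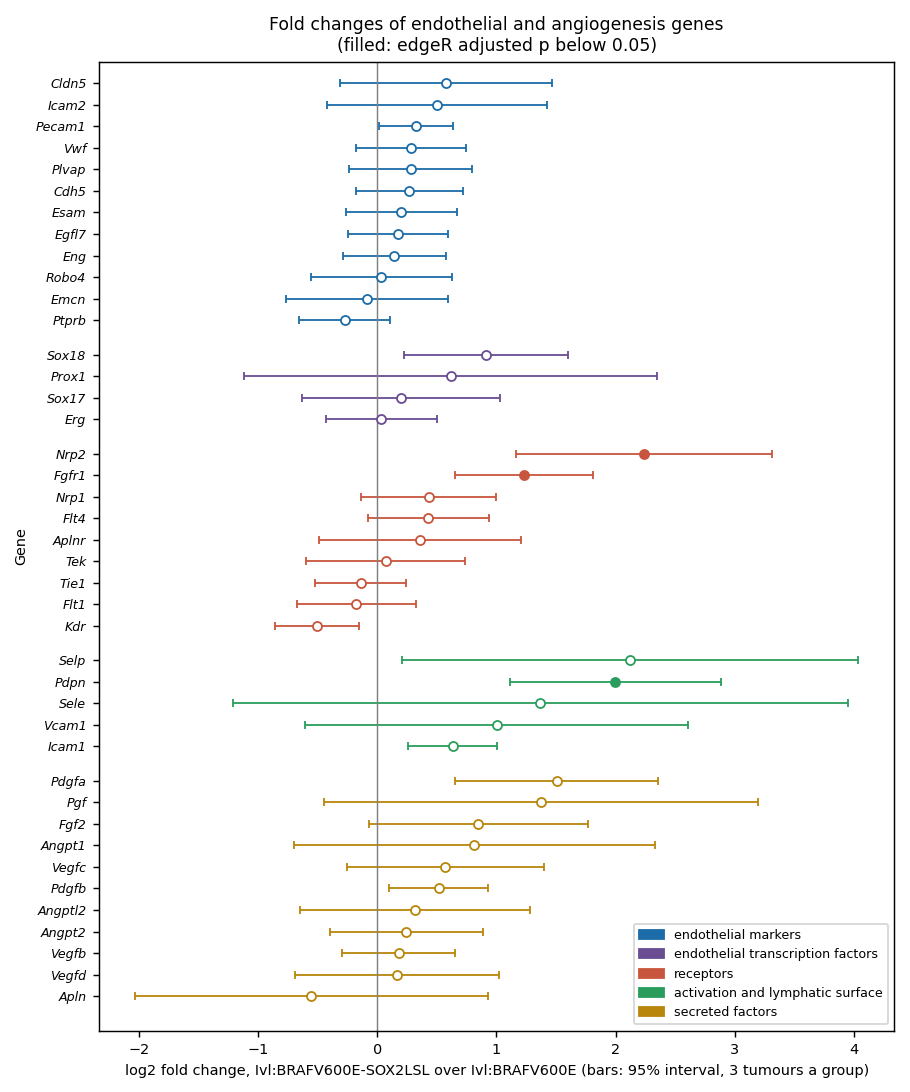
Log2 fold change of each of the 41 genes (x axis, Ivl:BRAFV600E-SOX2LSL over Ivl:BRAFV600E) by role, with 95% intervals from edgeR over 3 tumours a group. Filled points mark an adjusted p below 0.05: Nrp2 at 2.24, Fgfr1 at 1.23 and Pdpn at 2.00, while the 12 endothelial markers lie between -0.27 and 0.58.

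The sequences just upstream of 3 members are shown because Nrp2 and Pdpn had the 2 largest log2 fold changes among the 3 called members, while Kdr was the member whose tumours separated in the other direction, and because the tumours differ by a SOX factor. They were read from the RefSeq promoter table (GRCm38.p6), in which 26 of the 41 members had an entry, are written 5′ to 3′ on the strand of the gene and were trimmed to the bases before the annotated transcript. Capitals mark the letters of a SOX core, ACAAT or ACAAAG on either strand, so that the other strand reads ATTGT or CTTTGT.
Nrp2 (chr1:62703067-62703284, plus strand): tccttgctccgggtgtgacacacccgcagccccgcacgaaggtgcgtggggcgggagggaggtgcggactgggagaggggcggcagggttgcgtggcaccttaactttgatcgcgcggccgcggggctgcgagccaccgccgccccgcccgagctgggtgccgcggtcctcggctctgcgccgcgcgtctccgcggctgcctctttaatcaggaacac
Pdpn (chr4:143299565-143299814, minus strand): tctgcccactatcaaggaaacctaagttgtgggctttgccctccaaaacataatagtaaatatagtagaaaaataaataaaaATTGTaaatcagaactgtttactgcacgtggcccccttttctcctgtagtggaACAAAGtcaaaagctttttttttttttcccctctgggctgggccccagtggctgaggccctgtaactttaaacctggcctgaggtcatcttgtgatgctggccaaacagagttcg
Kdr (chr5:75978459-75978705, minus strand): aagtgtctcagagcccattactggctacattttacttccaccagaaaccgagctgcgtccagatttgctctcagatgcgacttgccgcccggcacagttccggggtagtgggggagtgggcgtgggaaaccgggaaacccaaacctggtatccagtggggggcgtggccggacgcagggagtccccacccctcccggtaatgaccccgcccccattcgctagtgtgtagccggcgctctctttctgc
The Pdpn sequence held 2 matches, and the GC-rich Nrp2 and Kdr sequences (72.5% and 61.5% G or C, against 43.2% for Pdpn) held 0. In the whole 300-base windows of the table, 7 of the 26 members (26.9%) had a match, as did 43.4% of 27025 genes. The letters GGAAG, part of the core bound by ETS factors such as ERG and searched on both strands, were present in 19 of the 26 members (73.1%) and in 71.1% of all genes. A match describes letters and not a bound site.

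The endothelial markers were the most even group. Pecam1 (PECAM1, a junctional adhesion molecule; chromosome 11, GRCm38) was measured at 44.9, 40.9 and 48.2 CPM in the Ivl:BRAFV600E tumours and at 54.9, 50.2 and 62.7 CPM in the Ivl:BRAFV600E-SOX2LSL tumours. These groups did not overlap, but the difference was small, a log2 fold change of 0.32 ± 0.13 (SE) with an adjusted p of 0.184 by edgeR. Cdh5, the cadherin of endothelial junctions, was at 32.2, 39.8 and 31.8 CPM against 51.5, 32.9 and 40.7 CPM, with clear overlap and a log2 fold change of 0.27 (95% interval -0.18 to 0.72). For Vwf, the clotting factor carrier stored in endothelial granules, the interval was -0.17 to 0.75, and for Eng, a TGFβ co-receptor, -0.29 to 0.57. Equal levels were therefore not shown for these genes.

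The fold change was positive for 10 of the 12 markers, with a median log2 value of 0.24. None was called by edgeR, DESeq2 or limma, and 1 (Pecam1) had an unadjusted p below 0.05 in edgeR. Their summed level was 261–289 CPM in the Ivl:BRAFV600E tumours and 264–342 CPM in the Ivl:BRAFV600E-SOX2LSL tumours. The median was 0.11 without Ivl:BRAFV600E-SOX2LSL tumour 1. Cldn5, a tight junction claudin, and Icam2, a constitutive adhesion molecule, had the largest log2 fold changes, 0.58 ± 0.38 and 0.50 ± 0.39, at levels of only 1.43–3.89 CPM and 0.739–1.74 CPM. Plvap (the diaphragm protein of fenestrated capillaries), Esam (a junction molecule) and Egfl7 (a secreted matrix protein of endothelium) lay between 0.17 and 0.28, and Robo4, a guidance receptor of endothelium, was at 0.03. Emcn, a sialomucin of capillaries and veins, was at -0.09, and Ptprb (the phosphatase VE-PTP) had the lowest value, -0.27 ± 0.16, with 57.0, 49.98 and 56.2 CPM against 36.8, 44.5 and 53.7 CPM.

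The 4 transcription factors had summed levels of 10.4–17.9 CPM and 15.2–26.6 CPM. Per kb of exon, the means of Sox18 were 3.22 CPM and 6.06 CPM, and those of Sox17, Erg and Prox1 lay between 0.332 and 1.32 CPM. Sox18, a SOX factor of developing blood and lymphatic vessels, was at 5.18, 4.30 and 6.18 CPM against 7.13, 8.55 and 13.8 CPM, so the groups did not overlap, and its log2 fold change was 0.91 ± 0.29 with an adjusted p of 0.116 by edgeR and 0.0402 by DESeq2. With 1 tumour left out the log2 fold change lay between 0.59 and 1.09, and Sox18 was called by edgeR in 0 of those 6 fits. Its relative Sox17, a factor of arterial endothelium, was at 2.39, 1.11 and 2.52 CPM against 2.38, 2.27 and 2.28 CPM, a log2 fold change of 0.20 ± 0.35. Erg, the ETS factor of endothelial identity, had nearly the same level in all 6 tumours, 4.20–4.67 CPM against 4.21–4.98 CPM, and a 95% interval of -0.43 to 0.50. Prox1, the factor that specifies lymphatic endothelium, ranged as widely within each group, 0.832–4.75 CPM and 1.20–6.03 CPM. None of the 4 was called by edgeR, 1 had an unadjusted p below 0.05, and DESeq2 called 1 and limma 0.

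The receptors were the group with the widest contrast among themselves, from the 2 called members to the only member whose tumours separated downwards. Nrp2, a co-receptor for VEGF-C and class 3 semaphorins found on lymphatic and venous endothelium and also on tumour and stromal cells, was at 68.2, 51.2 and 55.7 CPM in the Ivl:BRAFV600E tumours and at 499, 160.4 and 167.5 CPM in the Ivl:BRAFV600E-SOX2LSL tumours. Ivl:BRAFV600E-SOX2LSL tumour 1 stood far above the other 2, which were themselves above every Ivl:BRAFV600E tumour. The means were 58.4 ± 8.82 CPM and 276 ± 193 CPM (SD, n = 3 each), and the log2 fold change was 2.24 ± 0.46 (edgeR adjusted p = 0.0465). Without Ivl:BRAFV600E-SOX2LSL tumour 1 the log2 fold change was 1.49 and the edgeR adjusted p 0.00456. In the other 5 fits with 1 tumour left out the call was lost, with adjusted p values of up to 0.167, and with sex as a covariate it was 0.131.

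Fgfr1, a receptor of fibroblast growth factors on many mesenchymal and epithelial cells, was at 26.3, 21.0 and 34.9 CPM against 83.0, 55.6 and 54.1 CPM. The groups were again well apart, with a log2 fold change of 1.23 ± 0.25 and an adjusted p of 0.0444 by edgeR. This call too was lost in 5 of the 6 fits with 1 tumour left out (adjusted p up to 0.175) and with sex as a covariate (0.0762). Its exons share 164 bases with a gene on the opposite strand, and whether the counts used strand was not stated.

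Kdr (VEGFR2, the main signalling VEGF receptor of blood endothelium) was at 38.4, 31.6 and 30.7 CPM in the Ivl:BRAFV600E tumours and at 25.9, 21.4 and 23.7 CPM in the Ivl:BRAFV600E-SOX2LSL tumours. All 3 values with SOX2 were thus below all 3 without, at a log2 fold change of -0.51 ± 0.15 and an edgeR adjusted p of 0.0976, which did not pass. DESeq2 and limma gave adjusted p values of 0.0339 and 0.0426, and the log2 fold change lay between -0.58 and -0.40 when any 1 tumour was left out. Kdr was called in 0 of those 6 fits, with edgeR adjusted p values of 0.0671 to 0.274. With sex as a covariate the edgeR adjusted p was 0.223.

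The remaining receptors were not called. Flt1 (VEGFR1) was at 36.5–57.4 CPM against 35.0–50.5 CPM, Tie1 at 18.0–21.9 CPM against 15.1–19.7 CPM and Tek (TIE2, the angiopoietin receptor) at 5.27–8.46 CPM against 5.31–9.56 CPM, so these 3 overlapped widely. Flt4 (VEGFR3, the VEGF-C receptor of lymphatic endothelium) was at 11.6, 7.76 and 12.0 CPM against 12.2, 15.2 and 14.9 CPM. Its groups did not overlap, by a narrow margin, and the log2 fold change was 0.43 ± 0.21 (edgeR adjusted p = 0.256). Nrp1, the paralogue of Nrp2 and co-receptor of VEGFR2, had a log2 fold change of 0.43 ± 0.24 with 14.2–20.0 CPM against 18.7–32.0 CPM. With 1 tumour left out this value lay between 0.18 and 0.59, and with sex as a covariate it was 0.29. For Aplnr, the apelin receptor, the log2 fold change was 0.36 ± 0.36. The summed level of the 9 receptors was 212–246 CPM against 349–728 CPM, and Nrp2 alone supplied 160.4–499 CPM of the latter.

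**Figure D2:**
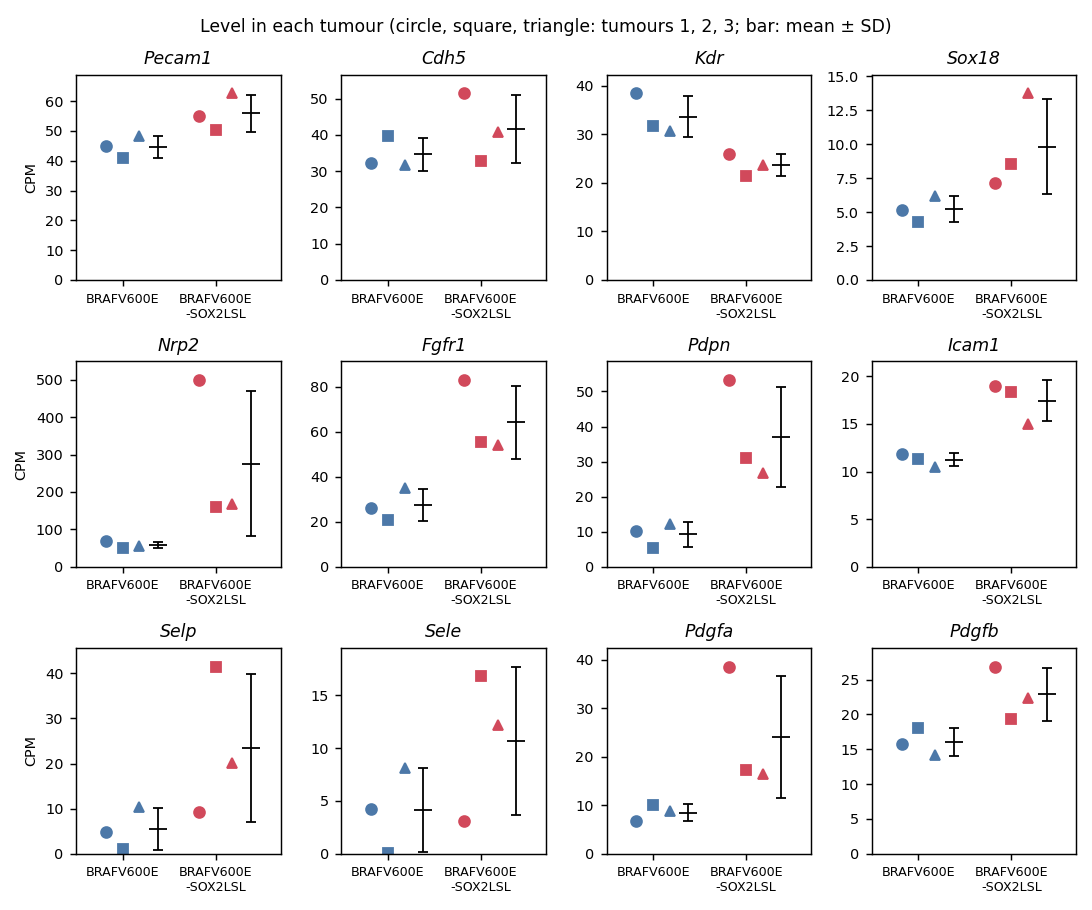
Level in CPM (y axis from 0) of 12 members in each tumour by genotype, with circles, squares and triangles for tumours 1, 2 and 3 and bars for the mean ± SD of 3. Nrp2, Fgfr1, Pdpn and Pdgfa separate by genotype with the circle (tumour 1) highest in the Ivl:BRAFV600E-SOX2LSL group, Selp and Sele are highest in the square (tumour 2) instead, and Kdr lies lower in that group.

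Among the 5 surface proteins of activated or lymphatic endothelium, Pdpn (podoplanin, a mucin-like glycoprotein of lymphatic endothelium that is also made by fibroblasts and by keratinocytes in wounds and carcinomas) was at 10.2, 5.31 and 12.2 CPM against 53.2, 31.03 and 26.7 CPM. Each Ivl:BRAFV600E-SOX2LSL tumour exceeded every Ivl:BRAFV600E tumour, at a log2 fold change of 2.00 ± 0.38 and an adjusted p of 0.0391 by edgeR. Without Ivl:BRAFV600E-SOX2LSL tumour 1 these values were 1.64 and 0.0318. In the other 5 fits with 1 tumour left out the edgeR adjusted p rose to as much as 0.160, and with sex as a covariate it was 0.0751, so the call was lost. Icam1, the ligand of leukocyte integrins, was very even within each genotype, at 11.9, 11.4 and 10.5 CPM against 19.0, 18.3 and 15.0 CPM. Its log2 fold change of 0.63 ± 0.16 had an adjusted p of 0.0711 by edgeR and 0.0110 by DESeq2.

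The selectins followed another pattern. Selp (P-selectin, stored in granules of endothelium and platelets) was at 4.78, 1.06 and 10.4 CPM against 9.18, 41.4 and 20.0 CPM. Sele (E-selectin, a selectin of endothelium) was at 4.23, 0.0924 and 8.08 CPM against 3.05, 16.8 and 12.2 CPM. Both were lowest in Ivl:BRAFV600E tumour 2, where Sele had 2 counts, and highest in Ivl:BRAFV600E-SOX2LSL tumour 2, and for both the groups overlapped. The log2 fold changes were large but imprecise, 2.12 ± 0.82 for Selp (edgeR adjusted p = 0.162, DESeq2 0.0302) and 1.37 ± 1.099 for Sele (edgeR adjusted p = 0.464). Without Ivl:BRAFV600E tumour 2, the tumour rich in red blood cell transcripts, they were 1.64 and 0.80. Over all 6 fits with 1 tumour left out they ran from 1.43 to 2.99 for Selp and from 0.80 to 2.28 for Sele, the lowest Selp value being that without Ivl:BRAFV600E-SOX2LSL tumour 2 and both highest values those without Ivl:BRAFV600E tumour 3. The platelet and megakaryocyte list, which bears on Selp, summed to 5.01–11.9 CPM against 10.7–14.9 CPM, with 0 of 8 genes called by edgeR, 1 at an unadjusted p below 0.05, 1 called by DESeq2 and 0 by limma. That 1 gene was Pf4, platelet factor 4, at 0.784–2.23 CPM against 2.78–11.2 CPM (log2 fold change 1.85 ± 0.62, edgeR adjusted p = 0.126). The 11.2 CPM was that of Ivl:BRAFV600E-SOX2LSL tumour 1, without which the log2 fold change was 1.02. The part of platelets in the Selp values was not tested. Vcam1, another integrin ligand, was at 11.0 CPM in Ivl:BRAFV600E-SOX2LSL tumour 1 and at 1.25–3.85 CPM in the other 5 tumours, so its log2 fold change of 1.003 ± 0.684 rested on that tumour and was -0.09 without it.

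The secreted factors as a group gave no call in edgeR. Positive fold changes were found for 10 of the 11, the median log2 value was 0.52, 2 had an unadjusted p below 0.05, and DESeq2 and limma called 1, Pdgfa, each. Pdgfa (a PDGF ligand made by keratinocytes and other epithelia that acts on fibroblasts through PDGFRA) was at 6.72, 10.0 and 8.70 CPM against 38.5, 17.2 and 16.5 CPM. All tumours with SOX2 were above all without, and the log2 fold change was 1.51 ± 0.36 with an edgeR adjusted p of 0.0649, DESeq2 0.00237 and limma 0.0357. Without Ivl:BRAFV600E-SOX2LSL tumour 1 it was 0.99 with an edgeR adjusted p of 0.0351. The exons of Pdgfa share 813 bases with a gene on the other strand.

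Pdgfb, the PDGF ligand by which endothelium recruits pericytes, was at 15.8, 18.1 and 14.1 CPM against 26.8, 19.4 and 22.4 CPM. The groups did not overlap, and the log2 fold change was 0.52 ± 0.18 (edgeR adjusted p = 0.129). Fgf2, a ligand of FGFR1, was at 2.39, 1.80 and 2.66 CPM against 4.56, 5.64 and 2.13 CPM, with a log2 fold change of 0.85 ± 0.39 and an adjusted p of 0.224. Its overlap came from Ivl:BRAFV600E-SOX2LSL tumour 3 alone.

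The VEGF relatives listed were at 0.443–6.25 CPM, a range that does not allow for gene length. Vegfa, the gene of VEGF-A, was not among the listed genes, so its level is not described. Vegfb, a ligand of VEGFR1, was flat at 4.37–5.84 CPM against 5.82–6.25 CPM, and Vegfd, a lymphatic growth factor, at 2.11–5.22 CPM against 3.19–4.95 CPM. Vegfc, the main ligand of VEGFR3 and a ligand of NRP2, was at 1.29–1.64 CPM against 1.48–3.08 CPM, a log2 fold change of 0.57 ± 0.35. With 1 tumour left out this value lay between 0.21 and 0.78. Pgf (placental growth factor, a VEGFR1 ligand) was uneven within the Ivl:BRAFV600E group, at 0.443, 2.77 and 0.475 CPM, against 3.11, 4.83 and 1.59 CPM with SOX2, and its log2 fold change of 1.38 had a 95% interval of -0.44 to 3.20. Without Ivl:BRAFV600E tumour 2 it was 2.78.

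Of the angiopoietins, Angpt1, the agonist of TIE2, was at 0.554–1.05 CPM against 0.397–2.49 CPM and Angpt2, its context-dependent antagonist, at 5.23–10.4 CPM against 7.87–9.57 CPM. Angptl2, a related secreted protein, was the most abundant of the secreted factors, at 52.4, 30.1 and 60.9 CPM against 97.8, 39.1 and 41.5 CPM. Its log2 fold change of 0.32 ± 0.41 became -0.25 without Ivl:BRAFV600E-SOX2LSL tumour 1. Apln, the ligand of the apelin receptor, was the only secreted factor with a log2 fold change below 0 (-0.55 ± 0.63), from 11.3, 29.3 and 5.18 CPM against 11.8, 5.18 and 14.2 CPM. This sign came from Ivl:BRAFV600E tumour 2, without which it was 0.33.

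Set directly against each other, the secreted factors and the endothelial markers did not separate the genotypes. The mean log2 CPM of the secreted factors minus that of the endothelial markers was -1.61, -1.16 and -1.60 in the Ivl:BRAFV600E tumours and -0.82, -1.01 and -1.52 in the Ivl:BRAFV600E-SOX2LSL tumours, and tumour 3 of the latter lay among the former. The summed level of the secreted factors was 105–115 CPM against 112–206 CPM, the high end being Ivl:BRAFV600E-SOX2LSL tumour 1. Without that tumour the median log2 fold change of the secreted factors was 0.22, against 0.11 for the endothelial markers.

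Each of the 29 other members was also expressed relative to the mean log2 CPM of the 12 endothelial markers of its own tumour. On this scale Nrp2, Pdpn, Pdgfa, Fgfr1 and Icam1 were higher in all Ivl:BRAFV600E-SOX2LSL tumours than in any Ivl:BRAFV600E tumour, by 1.84, 1.81, 1.21, 1.04 and 0.43 on the log2 scale, and Kdr and Erg were lower, with differences of -0.70 and -0.16. Over all genes tested 11.1% separated upwards and 22.0% downwards on this scale. The log2 level of Kdr above the endothelial marker mean was 1.58, 1.30 and 1.21 in the Ivl:BRAFV600E tumours against 0.74, 0.71 and 0.56 with SOX2, whereas the values of Flt4 (-0.14, -0.72 and -0.13 against -0.34, 0.22 and -0.10), Sox18 and Pdgfb overlapped on it.

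Levels of different genes can be compared only per length. Per kb of exon, Plvap (16.1 CPM per kb), Eng (10.0) and Cdh5 (8.23) had the 3 highest means of all members in the Ivl:BRAFV600E tumours, and Nrp2 (23.3), Pdpn (20.4) and Plvap (19.6) in the Ivl:BRAFV600E-SOX2LSL tumours. In Ivl:BRAFV600E tumours 1 and 3 Angptl2 (8.33 and 9.68) was above Cdh5 (7.66 and 7.56), as was Pecam1 (7.74) in tumour 3. Cdh5 was at 9.46 in tumour 2. The order in the second group rested on tumour 1, where Nrp2 was at 42.1 and Pdpn at 29.3 CPM per kb. Without it the means were 13.8 for Nrp2, 15.9 for Pdpn and 18.3 for Plvap, the reverse order. This in turn came from tumour 3, where Plvap (23.3) was above Pdpn (14.7) and Nrp2 (14.1), whereas in tumour 2 Plvap (13.3) was below Nrp2 (13.5) and Pdpn (17.1).

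Which tumour was highest differed from gene to gene. Ivl:BRAFV600E-SOX2LSL tumour 1 had the highest value for 16 of the 41 genes, among them Nrp2, Fgfr1, Nrp1, Pdpn, Vcam1, Pdgfa, Pdgfb and Angptl2. Tumour 2 of the same genotype had the highest value for 10, among them both selectins, and tumour 3 for 5, among them Sox18 and Pecam1. Ivl:BRAFV600E tumour 2 had the lowest value for 21 of the 41, including all 4 transcription factors, 6 of the 9 receptors and both selectins, and the highest for 6, namely Emcn, Robo4, Flt1, Vegfd, Angpt2 and Apln.

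**Figure D3:**
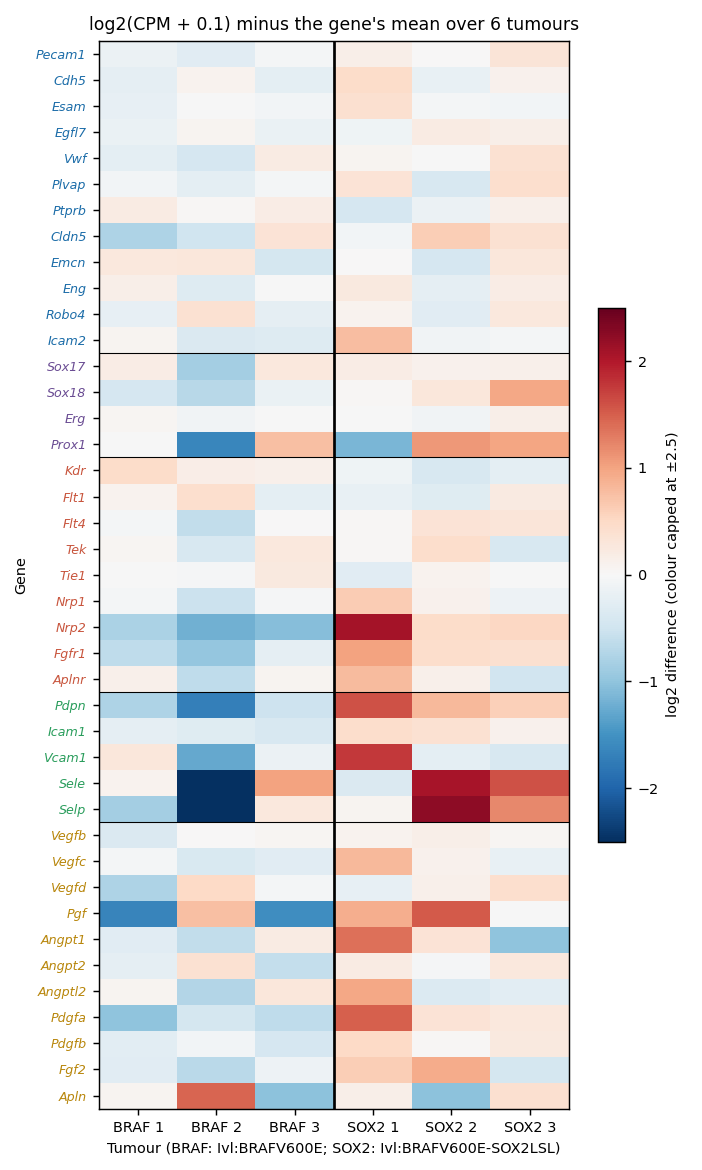
Heat map of log2(CPM + 0.1) of each gene minus its mean over the 6 tumours, with genes in rows by role (lines divide the roles) and tumours in columns, BRAF for Ivl:BRAFV600E and SOX2 for Ivl:BRAFV600E-SOX2LSL. The endothelial marker rows are pale throughout, Nrp2, Pdpn, Vcam1 and Pdgfa are darkest red in SOX2 tumour 1, and Sele and Selp are blue in BRAF tumour 2 and red in SOX2 tumours 2 and 3.

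Other cell types also differed between the tumours, and their levels stand beside the called genes, since NRP2, FGFR1 and PDPN are not restricted to vessels. The 11 fibroblast markers summed to 760–5133 CPM against 4039–8410 CPM (Col1a1 at 385–2285 CPM against 1691–4019 CPM), with 0 called by edgeR, 3 at an unadjusted p below 0.05 and 2 called by each of DESeq2 and limma. The 9 leukocyte markers summed to 65.8–105 CPM against 175–456 CPM, and 3 of the 8 tested were called higher by edgeR (2.39% of all genes), with 7 at an unadjusted p below 0.05 (25.7% of all genes), 6 called by DESeq2 and 4 by limma. The 3 called by edgeR, Ptprc, Csf1r and Coro1a, each passed in only 1 of the 6 fits with 1 tumour left out. None of them passed with sex as a covariate (edgeR adjusted p 0.0775, 0.0717 and 0.0802). Lcp1, a leukocyte actin-bundling protein with the highest mean CPM of the list, was at 14.4–27.6 CPM against 47.1–216 CPM. The 10 keratinocyte markers summed to 114400–183300 CPM against 22800–77910 CPM, with 5 separating downwards and 1 upwards, 0 called by edgeR, 6 at an unadjusted p below 0.05, 5 called by DESeq2 and 2 by limma. The list did not move as one. Krt1, a keratin of differentiating keratinocytes, was at 32200–45420 CPM against 1010–13010 CPM, whereas Dsg3, a desmosomal cadherin, was the marker that separated upwards, at 736–880.0 CPM against 911–1586 CPM, and the basal markers Krt5, Trp63 and Krt14 had log2 fold changes of 0.29, 0.10 and -0.65, with none of the 3 called.

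Separation was thus seen for 3 of 11 fibroblast, 7 of 8 leukocyte and 6 of 10 keratinocyte markers, against 18.2% upwards and 16.0% downwards over all genes. In all 3 of these lists Ivl:BRAFV600E-SOX2LSL tumour 1, in which Nrp2, Fgfr1 and Pdpn were highest, held the highest or, for keratinocytes, the lowest sum. Their part in the levels of those 3 genes was not tested. The sums of the smaller lists overlapped between the genotypes. Schwann cell markers summed to 40.5–49.8 CPM against 40.8–60.8 CPM (Mbp at 39.2–42.4 CPM against 34.0–53.5 CPM), and adipocyte markers to 17.5–44.2 CPM against 11.2–80.2 CPM. Fabp4, which has the highest mean CPM of the adipocyte list and is also made by capillary endothelium, was at 16.1–43.7 CPM against 10.7–36.4 CPM. The other 5 adipocyte markers were all highest in Ivl:BRAFV600E-SOX2LSL tumour 1, where Cfd was at 22.2 CPM against 0.259–0.855 CPM in the other tumours, and Adipoq, at 4.20 CPM there, had 0 counts in all Ivl:BRAFV600E tumours. The part of adipocytes in the levels of Nrp2, Fgfr1 and Pdpn was not tested either.

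**Figure D4:**
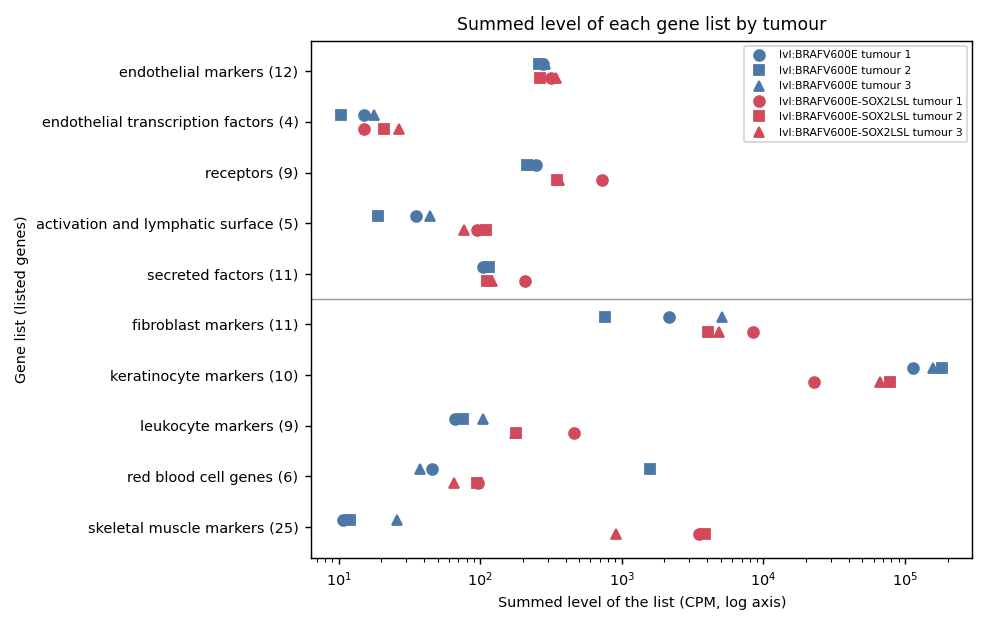
Summed CPM (log axis) of each role group and of 5 cell type lists in each tumour, blue for Ivl:BRAFV600E and red for Ivl:BRAFV600E-SOX2LSL, with circles, squares and triangles for tumours 1, 2 and 3. The endothelial marker sums overlap (261–289 against 264–342 CPM), the receptor and the activation and lymphatic surface sums do not, and the leukocyte, keratinocyte and skeletal muscle sums are also apart.

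Further genes of the same pathways were described from 5 lists, whose counts stand beside the shares over all genes: 2.39% called higher by edgeR, 18.2% called by DESeq2, 25.7% at an unadjusted p below 0.05, and 18.2% separating upwards and 16.0% downwards. Of 38 other endothelial genes, 1 was called, with a median log2 fold change of 0.27. This was Notch4, a Notch receptor largely restricted to endothelium, at 12.5, 14.4 and 8.79 CPM against 35.7, 28.1 and 39.6 CPM. Its 2 groups were widely separated, with a log2 fold change of 1.53 ± 0.23 and an adjusted p of 0.0253 by edgeR. It passed in 2 of the 6 fits with 1 tumour left out (adjusted p up to 0.122 in the others) and with sex as a covariate (0.0211). In the same list 8 of 38 genes separated upwards, near the share over all genes of 18.2%, and 2 downwards, where 16.0% did so.

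The 12 lymphatic endothelial genes had a median log2 fold change of 0.74, with 4 of 12 separating upwards and 0 downwards (18.2% and 16.0% of all genes). None was called by edgeR, 4 had an unadjusted p below 0.05 (25.7% of all genes), DESeq2 called 3 (18.2% of all genes) and limma 1. Lyve1, the hyaluronan receptor of lymphatic endothelium and some macrophages, was at 3.99, 1.66 and 3.85 CPM against 8.34, 10.6 and 6.65 CPM (log2 fold change 1.43 ± 0.37, edgeR adjusted p = 0.0743). Fxyd6, a regulator of the sodium pump, had a log2 fold change of 1.34 ± 0.35 and an adjusted p of 0.0744. Both were thus higher in all tumours with SOX2, as Flt4 and Pdpn were. Prox1 was not, nor were Mmrn1, Ccl21a, Reln, Stab1, Stab2, Nr2f2, Pard6g and Ackr2 of the list. Of these, Stab1 (-0.30) and Pard6g (-0.12) had log2 fold changes below 0.

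The 20 pericyte and smooth muscle genes were evenly split, with a median of 0.04, 3 of 20 separating upwards and 4 downwards, close to the 18.2% and 16.0% of all genes. None was called by edgeR, 5 had an unadjusted p below 0.05 (25.7% of all genes), DESeq2 called 3 and limma 2. Rgs4, a regulator of G protein signalling, was at 2.11–2.96 CPM against 3.95–5.96 CPM (log2 fold change 0.96 ± 0.26), and Anpep, an aminopeptidase of pericytes, fibroblasts and myeloid cells, at 9.42–31.03 CPM against 38.1–52.5 CPM (1.39 ± 0.43, and 2.08 without Ivl:BRAFV600E tumour 3). The 4 genes that separated downwards were Rgs5, Cspg4, Ndufa4l2 and Kcnj8, all known from pericytes. Rgs5 was at 118–151 CPM against 51.4–92.3 CPM (-0.72 ± 0.24, edgeR adjusted p = 0.126) and Cspg4 (NG2) at 27.0–38.7 CPM against 15.7–25.0 CPM (-0.73 ± 0.23, edgeR adjusted p = 0.109, DESeq2 0.0411). The log2 fold changes of Ndufa4l2 and Kcnj8 were -0.84 and -0.40. Over the list, 10 of the 20 log2 fold changes were above 0. Pdgfrb, the PDGF-B receptor, was at 33.0–51.7 CPM against 45.4–104 CPM (0.72 ± 0.32, edgeR adjusted p = 0.210). Mcam (0.75) and Abcc9 (0.19) were also positive, with overlapping groups. The lowest values with 1 tumour left out were 0.31 for Pdgfrb, 0.21 for Mcam and -0.03 for Abcc9. Higd1b (-0.72), Gucy1a1 (-0.31), Notch3 (-0.22), Cox4i2 (-0.17), Tbx18 (-0.12) and Gucy1b1 (-0.05) were negative with overlapping groups. The list thus had no common direction.

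Of 16 tested genes listed as angiogenesis inhibitors, 8 separated upwards and 0 downwards (18.2% and 16.0% of all genes), and the median log2 fold change was 0.82. The label is that of the list, and the role of each gene in it was not examined. None was called by edgeR, 7 had an unadjusted p below 0.05 (25.7% of all genes), DESeq2 called 6 (18.2% of all genes) and limma 2. Angptl4, a secreted lipase inhibitor induced by low oxygen and fatty acids, was at 3.45, 1.85 and 4.51 CPM against 34.2, 11.8 and 10.3 CPM (log2 fold change 2.52 ± 0.55, edgeR adjusted p = 0.0540). Without Ivl:BRAFV600E-SOX2LSL tumour 1 its log2 fold change was 1.75 with an adjusted p of 0.0339. Vash1 (vasohibin, a feedback inhibitor made by endothelium) had a log2 fold change of 0.96 ± 0.25.

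Of 24 ligand and receptor partners tested, 3 were called, all higher (2.39% of all genes), with a list median of 0.30 and 6 genes separating upwards (18.2% of all genes). Met, the receptor of hepatocyte growth factor, was at 34.7, 25.31 and 31.03 CPM against 127, 66.0 and 68.7 CPM (log2 fold change 1.52 ± 0.28, edgeR adjusted p = 0.0364). Pdgfc, another PDGF ligand, was at 1.84, 1.57 and 2.80 CPM against 7.08, 5.64 and 5.13 CPM (1.52 ± 0.29, adjusted p = 0.0416 by edgeR). Ackr3, a scavenging receptor of CXCL12, was at 7.64, 10.4 and 13.1 CPM against 35.8, 28.7 and 18.6 CPM (1.42 ± 0.29, adjusted p = 0.0484 by edgeR). All 3 were separated by genotype, and all 3 were, like Nrp2, highest in Ivl:BRAFV600E-SOX2LSL tumour 1. Each of the 3 passed in only 1 of the 6 fits with 1 tumour left out, with edgeR adjusted p values of up to 0.137, 0.169 and 0.174, and none passed with sex as a covariate.

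The calls rest on 3 tumours a group. The 1 fit with a tumour left out in which Nrp2, Fgfr1 and Pdpn each passed was that without Ivl:BRAFV600E-SOX2LSL tumour 1, and their log2 fold changes lay between 0.999 and 2.51 in the 6 such fits and with sex as a covariate.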

How the data were processed

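RNA sequencing counts of 6 bulk tumours were used. According to the study's methods and the submitters' processing notes, the authors depleted ribosomal RNA from 200 ng of RNA, sequenced about 30 M read pairs of 150 bp per tumour, checked them with FastQC 0.11.8, trimmed them with TrimGalore, aligned them with HISAT2 2.1.0 to GRCm38 and counted them per gene with featureCounts (Subread 1.6.3). The authors deposited raw counts, without normalisation or pooling. Use of strand and of multimapping reads is not given in the sources used here, and exons of 12 of the 41 members overlap another gene in GENCODE M21, which gave the coordinates and exon lengths. Columns are named by mouse and were assigned to genotypes from the study's list of mice. The sample labels name 4 Ivl:BRAFV600E and 3 Ivl:BRAFV600E-SOX2LSL tumours. Of the former, 3 could be tied to columns, and 1 column of uncertain group was not used. Each tumour came from a different mouse.

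Genes with at least 5 counts in at least 1 tumour were kept, scaled by TMM and compared with the two-sided quasi-likelihood test of edgeR 4.0.16 in R 4.3.3, with Benjamini-Hochberg adjustment over all genes tested. SEs are the log2 fold change divided by the root of F. Log2 CPM used a prior count of 2. Exact permutation of 3 against 3 tumours cannot give a p below 0.1 and was not used. Levels relative to the endothelial markers were chosen with the data in view. The members and lists were chosen with earlier results of these data known. All members are named. Of each related list, genes with an adjusted p below 0.05 are named or, if none, the 2 with the smallest p, and of each cell type list the gene with the highest mean CPM, a raw order that does not allow for gene length. Pf4, Ptprc, Csf1r, Coro1a, Dsg3, Krt5, Krt14, Trp63, Cfd and Adipoq were named after their values were seen. So were Rgs5, Cspg4, Ndufa4l2, Kcnj8, Pdgfrb, Mcam, Abcc9, Higd1b, Gucy1a1, Notch3, Cox4i2, Tbx18, Gucy1b1 and the lymphatic genes other than Lyve1 and Fxyd6. One listed symbol had no row. Itga2b and Hbb-bs, first by mean CPM of the platelet and red blood cell lists, were at 1.68–6.39 and 21.7–905 CPM over the 6 tumours, and Ttn, that of skeletal muscle, at 0.785–8.51 against 509–2009 CPM. Alternatives were DESeq2 1.42.0, limma 3.58.1 (voom with sample weights), other scalings and filters, sex as a covariate, scaling without the 10 genes with most counts or without the skeletal muscle genes, and each tumour left out. The scripts were tested on simulated data. Figures were drawn with matplotlib 3.10.9.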

Additional observations from a re-analysis of the deposited data

How the results depend on the processing

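No paired analysis was possible because the columns are named by mouse and carry no replicate number. With each tumour left out, between 22 and 1575 of all genes, 0 and 4 members and 0 and 7 related genes were called by edgeR, against 954, 3 and 4 with all tumours. The high ends were without Ivl:BRAFV600E-SOX2LSL tumour 1. DESeq2 called 3653 genes, 8 members and 19 related genes, and limma 2142, 5 and 10. Without a filter 1759 genes, 4 members and 8 related genes were called, and with sex as a covariate 228, 0 and 1. The cause was not tested. filterByExpr called 1296 genes and 3 members, and the scalings with DESeq2 size factors, upper quartiles or without abundant or muscle genes called 923–974 genes and 3 members each.

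Of the 615 values of the 41 fold changes over 15 alternatives, 564 kept direction and side of the threshold, and 24, all of genes not called, reversed. With sex as a covariate the log2 fold change was 0.14 for Emcn, -0.13 for Tek and 0.09 for Apln. Upper-quartile scaling, which moved the median of all genes from 0.04 to -0.06, gave -0.07 for Robo4, -0.06 for Erg and -0.03 for Tek, and limma gave -0.12 for Angptl2. Leave-one-out values ran from -0.29 to 0.08 for Emcn, from -0.09 to 0.26 for Robo4, from -0.09 to 0.39 for Sox17, from -0.03 to 0.09 for Erg, from -0.34 to 0.00 for Flt1, from -0.17 to 0.26 for Tek, from -0.03 to 0.62 for Aplnr, from -0.09 to 1.38 for Vcam1, from -0.12 to 0.52 for Vegfd, from -0.25 to 0.54 for Angptl2 and from -0.96 to 0.33 for Apln. Sele had 2 counts in Ivl:BRAFV600E tumour 2, below the floor of 3 counts.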
